A study of Mus musculus with 2 samples.

Results

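Divergent promoter pairs are the regions from which 2 protein-coding genes on opposite strands are transcribed away from each other. They were taken from GENCODE M21 gene models on chromosomes 1 to 19 of mm10, wherever the 5′ ends of the gene models lay 0 to 1000 bp apart. The rule found 735 pairs in 715 distinct regions. They hold 1450 of 20807 protein-coding genes, or 6.97%, and 20 genes stand in more than 1 pair. The maps are DNase-seq of whole lung from newborn mice (postnatal day 0, strain B6NCrl), as 1 untreated group of 2 biological replicates. Both replicates carry the same donor entry and separate biosample entries, sex was not collected, and whether they are different animals or pools is not stated. There is no other age, tissue or treatment here, so the comparison is between pairs and the 18126 single promoters, which have no other protein-coding 5′ end within 1000 bp on either strand. Whole lung mixes epithelial, endothelial, mesenchymal and blood cells, so more cells with an open promoter and a more open promoter per cell cannot be told apart.

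DNase I cuts DNA where nucleosomes are displaced, and active promoters give some of the clearest sites. A divergent pair places 2 core promoters back to back around a shared stretch from which nucleosomes can be displaced for both genes. In mammals such pairs usually lie in CpG islands, often lack a TATA box, and are known to be frequent among genes for DNA repair, mitochondrial function and other housekeeping tasks. Each replicate has a list of 150-bp peaks with a score from the authors and a list of broader hotspots with a −log10 q-value. The sources used here do not say what the score measures, and it was used to rank peaks within a replicate only.

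The stretches between the 5′ ends show how short these shared regions are. The 7 printed here are the plus strand of GRCm38, the assembly that mm10 denotes, from the base after the minus-strand gene's 5′ end to the base before the plus-strand gene's 5′ end, so that they lie outside both gene models. The first 4 are well-known pairs, the fifth has the highest-ranked peak of all pairs, and the last pair of lines had no peak. Capitals mark GGGCGG, the letters bound by SP1 family factors, and CCAAT, those bound by NF-Y, on either strand, so that CCAAT on the minus strand reads ATTGG.
Brca1/Nbr1 (chr11:101551956-101552148): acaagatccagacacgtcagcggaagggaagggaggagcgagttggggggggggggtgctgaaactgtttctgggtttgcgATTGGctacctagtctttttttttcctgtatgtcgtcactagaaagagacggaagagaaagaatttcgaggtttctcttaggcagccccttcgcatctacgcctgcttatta
Mrps12/Sars2 (chr7:28741821-28741991): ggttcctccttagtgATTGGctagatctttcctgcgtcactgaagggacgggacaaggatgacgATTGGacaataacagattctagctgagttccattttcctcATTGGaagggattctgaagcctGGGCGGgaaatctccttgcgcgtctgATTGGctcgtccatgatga
Hadha/Hadhb (chr5:30155163-30155247): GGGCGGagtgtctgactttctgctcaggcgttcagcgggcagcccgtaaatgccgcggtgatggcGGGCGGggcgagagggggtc
Col4a4/Col4a3 (chr1:82586850-82586920): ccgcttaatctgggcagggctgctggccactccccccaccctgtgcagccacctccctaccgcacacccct
Hjurp/Trpm8 (chr1:88277634-88277660): ggggagggacgagagggagggtccgcc
4930430F08Rik/1700017N19Rik (chr10:100590424-100590483): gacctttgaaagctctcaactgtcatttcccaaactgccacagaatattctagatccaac
Aspa/Gm49340 (chr11:73329597-73329740): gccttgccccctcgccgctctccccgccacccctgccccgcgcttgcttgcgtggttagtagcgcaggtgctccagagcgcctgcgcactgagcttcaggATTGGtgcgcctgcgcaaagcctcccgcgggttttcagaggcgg
The stretch between Mrps12 and Sars2 held CCAAT letters 4 times and GGGCGG once, and that between Hadha and Hadhb held GGGCGG at 2 places. The Col4a4/Col4a3 stretch matched none of the 12 motifs searched. The median gap over all pairs was 128 bp, with quartiles of 66 and 240 bp, and 603 pairs (82.0%) were no more than 300 bp apart. The smallest gap was 0 bp, at Nsa2/Gfm2, where the strongest peaks scored 137 in replicate 1 and 117 in replicate 2. At the upper limit of the rule, Zfyve26/Rad51b (978 bp), Asphd1/Sez6l2 (981 bp) and Btf3l4/Txndc12 (987 bp) were inside it, with strongest scores of 134, 108 and 142 in replicate 1 and 124, 88 and 127 in replicate 2. Gpr108/Trip10 (1009 bp), Sgsm2/Tsr1 (1011 bp) and Dirc2/Hspbap1 (1019 bp) were outside it, with 124, 127 and 117 in replicate 1 and 133, 103 and 101 in replicate 2. Of these, the 133 of Gpr108/Trip10 in replicate 2 was above the scores of the 3 pairs inside, and the others lay within them.

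Nearly all divergent pairs were accessible in newborn lung. A peak of both replicates lay within 500 bp of the pair's 5′ ends or between them at 707 of 735 pairs, or 96.2% (exact binomial 95% interval 94.5 to 97.5, which covers counting error only), against 10957 of 18126 single promoters, or 60.4% (59.7 to 61.2). Over all protein-coding 5′ ends the share was 64.4%. A peak of replicate 1 alone was found at 3 pairs and 871 single promoters, and of replicate 2 alone at 1 pair and 141 single promoters. No peak of either replicate was found at 24 pairs (3.27%) and 6157 single promoters (34.0%). The 95% intervals of the pair and single shares did not overlap in either replicate: the shares were 96.6% of pairs and 65.3% of single promoters in replicate 1, and 96.3% of pairs and 61.2% of single promoters in replicate 2. Single promoters with a divergent gene of another type within 1000 bp upstream, such as a long noncoding RNA, stood between these groups, with 689 of 832 accessible (82.8%, 80.1 to 85.3). Pair windows were longer, with a median of 1129 bp against 1001 bp at single promoters.

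A further 435 pairs had gene models that overlap at their 5′ ends by up to 1000 bp, by a median of 322 bp, and are not counted as members. Of these, 419 (96.3%, 94.1 to 97.9) had a peak of both replicates. They include 7 of the 15 textbook pairs that were looked for. Hspd1/Hspe1, the mitochondrial chaperonin and its cochaperonin, had strongest scores of 144 in replicate 1 and 131 in replicate 2. Ppat/Paics, enzymes of purine synthesis, had 143 and 131, Sirt3/Psmd13 130 and 118, Psmb9/Tap1 126 and 116, Surf1/Surf2 122 and 99, and Col4a1/Col4a2 114 and 93, each with replicate 1 before replicate 2. Each of these had a peak in both replicates.

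The strongest peak in a pair window ranked high in its replicate. Its median score was 133 at pairs and 115 at single promoters in replicate 1, and 117 at pairs and 97 at single promoters in replicate 2, where the medians of all peaks were 50 and 43. The quartiles of pairs were 124 and 140 in replicate 1 and 106 and 126 in replicate 2, and those of single promoters 78 and 131 in replicate 1 and 64 and 115 in replicate 2. A peak of the top score decile was present at 92.8% of pairs and 40.7% of single promoters in replicate 1, and at 91.3% of pairs and 37.1% of single promoters in replicate 2. In both replicates at once, 668 pairs had one, a count that was not made for single promoters. At single promoters with a divergent gene of another type the medians were 128 (replicate 1) and 111 (replicate 2). More than 1 peak was common at pairs: 68.6% held at least 2 in replicate 1 and 67.6% in replicate 2, against 34.5% and 30.4% of single promoters. Single promoters with a divergent gene of another type stood between, at 50.4% and 49.4%. These shares are over all windows, with or without a peak, and pair windows are longer. In windows with a peak, the mean number of peaks was 2.08 at pairs and 1.66 at single promoters in replicate 1. In replicate 2 it was 2.00 and 1.62. Across the 707 pairs accessible in both, scores of the replicates followed each other, with Spearman's rho of 0.89 and Pearson's r of 0.92 as descriptions across pairs, which share the 2 libraries.

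**Figure D1:**
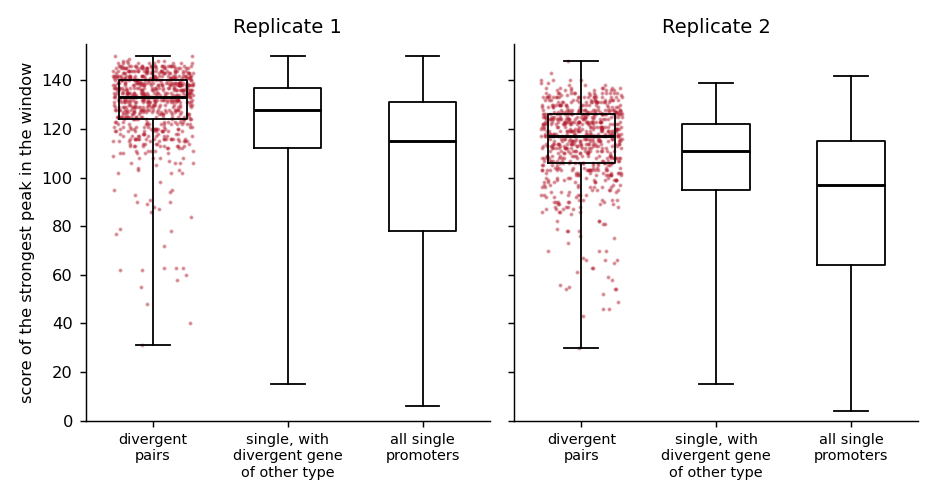
Score of the strongest peak in each window, by replicate, for divergent pairs (points are single pairs), single promoters with a divergent gene of another type, and all single promoters. Boxes give the quartiles and median, and whiskers the lowest and highest value. From left to right, the medians are 133, 128 and 115 in replicate 1, and 117, 111 and 97 in replicate 2.

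Much of the difference in accessibility went with CpG number. Pairs had a median of 68 CpG within 500 bp of a 5′ end, against 36 at single promoters and 68 at single promoters with a divergent gene of another type. The 3 highest CpG deciles held 56.2% of pair members and 27.0% of single promoters, and the 3 lowest held 2.69% of pair members and 32.9% of single promoters. Taken end by end, 1383 of 1450 pair members (95.4%, 94.2 to 96.4) had a peak of both replicates within 500 bp. The windows of the 2 ends of a pair mostly overlap, so 1 peak often counts for both members. Members are thus not independent, and their intervals here and by decile are too narrow. Single promoters weighted to the CpG deciles of the pair members reached 90.0%, so that 5.37 percentage points remained of a difference of 34.9 points without weighting. A member's window mostly holds its partner's 5′ end too, and the part of this in the 5.37 points was not tested. The remainder was 3.14 points in replicate 1 alone, 5.23 points in replicate 2 alone, and 11.1 points when only peaks above their list's median score counted. The median score was 133 at pair members against 123 at single promoters weighted in this way in replicate 1, and 117 against 104 in replicate 2.

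Within deciles, pair members exceeded single promoters from 27 CpG upward. At 27 to 42 CpG, 94 of 104 pair members (90.4%, 83.0 to 95.3) were accessible, against 76.5% of single promoters (74.6 to 78.4), and their median scores were 132 against 104 in replicate 1 and 114 against 86 in replicate 2. At 54 to 64 CpG the shares were 98.9% of pair members and 92.9% of single promoters. In the highest decile, 232 of 232 pair members were accessible, against 96.0% of single promoters. Below 27 CpG there were only 63 pair members. At 16 to 26 CpG, 13 of 24 (54.2%) were accessible against 45.1% of single promoters, and at 10 to 15 CpG 5 of 21 (23.8%) against 27.4%, with intervals for pair members that held the single share. Low-CpG pair members were thus not distinguishable from single promoters at these numbers.

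**Figure D2:**
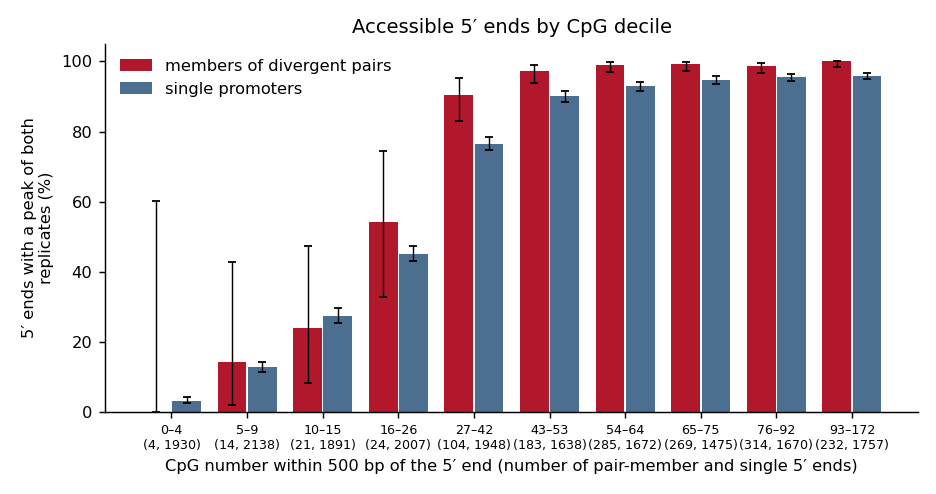
Share of 5′ ends with a peak of both replicates within 500 bp (y axis, percent) by CpG decile (x axis), for members of divergent pairs and single promoters. Bars carry exact binomial 95% intervals. Pair members stand above single promoters from 27 CpG upward, at 90.4% against 76.5% in the fifth decile and 232 of 232 against 96.0% in the tenth.

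One hotspot usually covered both promoters. At 653 of 735 pairs (88.8%, 86.3 to 91.0) a single hotspot lay over both 5′ ends in both replicates, which is 92.4% of the 707 accessible pairs. As a comparison of the same spacing, a hotspot over a single promoter's 5′ end and over the base one pair gap upstream, averaged over the gaps of all pairs, was found at 42.0% of single promoters and at 69.5% of the accessible ones. The hotspot over a 5′ end had a median width of 1456 bp at pairs against 1068 bp at single promoters in replicate 1, and 1178 against 834 bp in replicate 2. At pairs this was the wider of the hotspots over the 2 ends, and at single promoters that over 1 end. Hotspots covered a median of 99.8% of the pair window against 82.8% of the single window in replicate 1, and 90.3% against 72.6% in replicate 2. Single promoters with a divergent gene of another type, with a median CpG number of 68 like pairs, came close to pairs. Their median widths were 1374.5 bp in replicate 1 and 1082 bp in replicate 2, and their median cover 99.6% and 89.2%. The hotspot values were not weighted by CpG number. The strongest hotspot in the window had the file's highest −log10 q of 100 at 99.3% of pairs with a hotspot in replicate 1 and 98.6% in replicate 2, against 86.1% and 82.5% of single promoters with one.

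Coverage by 1 hotspot depended on the gap. It was found at 99.2% of 126 pairs with a gap of up to 50 bp, at 92.8% at 51 to 100 bp, 92.0% at 101 to 200 bp, 88.5% at 201 to 300 bp and 89.1% at 301 to 500 bp. At 501 to 1000 bp it was found at 34 of 68 pairs. Over the same spacings single promoters gave 52.9, 51.6, 47.1, 35.7, 23.9 and 7.45%. The share of pairs with a peak of both replicates varied less, between 91.2% (62 of 68) in the widest gap class and 99.2% in the narrowest. The mean number of peaks in an accessible window was 1.78 at gaps of up to 50 bp and 2.82 at gaps of 501 to 1000 bp in replicate 1, and 1.78 and 2.81 in replicate 2, with windows that lengthen with the gap. Both 5′ ends had a peak within 500 bp at 695 of 735 pairs, 1 end at 12 and neither at 28. Of the 12, 11 had a gap of more than 500 bp, where the windows of the 2 ends overlap least.

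**Figure D3:**
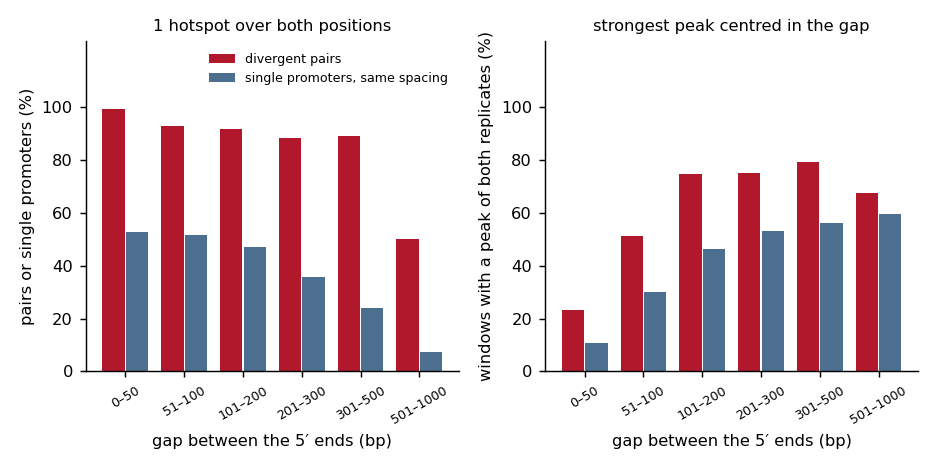
Left, share of pairs with 1 hotspot over both 5′ ends in both replicates, and of single promoters with 1 hotspot over the 5′ end and the base the same distance upstream, by gap. Right, share of windows with a peak of both replicates whose strongest peak was centred between those positions in both. Coverage is lowest at 501 to 1000 bp, at 34 of 68 pairs and 7.45% of single promoters.

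The strongest peak was mostly centred in the shared stretch. It was centred between the 5′ ends at 458 of 710 pairs with a peak in replicate 1 (64.5%), at 469 of 708 in replicate 2 (66.2%), and in both replicates at 423 of 707 (59.8%, 56.1 to 63.5). It was centred within the same distance upstream at 39.2% of accessible single promoters, averaged over the pairs' gaps. With a tolerance of 50 bp outside the ends, the share of pairs was 82.5%. Where it was not between the ends, it lay inside the minus-strand gene at 19.2% of pairs in replicate 1 and 16.7% in replicate 2, and inside the plus-strand gene at 16.3% and 17.1%. The sides differed little, with overlapping intervals, but strand does not say which promoter of a pair is more open, so this does not describe balance within a pair. By gap, the share centred between the ends was 23.2% at up to 50 bp, 51.4% at 51 to 100 bp, 74.9% at 101 to 200 bp, 75.3% at 201 to 300 bp, 79.4% at 301 to 500 bp and 67.7% at 501 to 1000 bp. A 150-bp peak is wider than the gap in the first 2 classes.

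Around the middle of the gap the pooled peak centres formed a summit. The minus-strand gene always lies on the left here, whichever promoter is more open. Pooled centres can thus be symmetric even where each pair's peak lies at 1 gene, and their symmetry is not a result about single pairs. The 50 bp to each side of the middle held 26.5% and 29.0% of strongest peak centres in replicate 1, and 27.7% and 29.4% in replicate 2. At single promoters the summit was shifted upstream: the 50 bp before the 5′ end held 25.5% of centres and the 50 bp past it 14.0% in replicate 1, and 26.7% and 13.6% in replicate 2. The strongest peak of the 2 replicates overlapped at 673 of the 707 accessible pairs (95.2%), near the share at accessible single promoters (10310 of 10957, 94.1%).

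**Figure D4:**
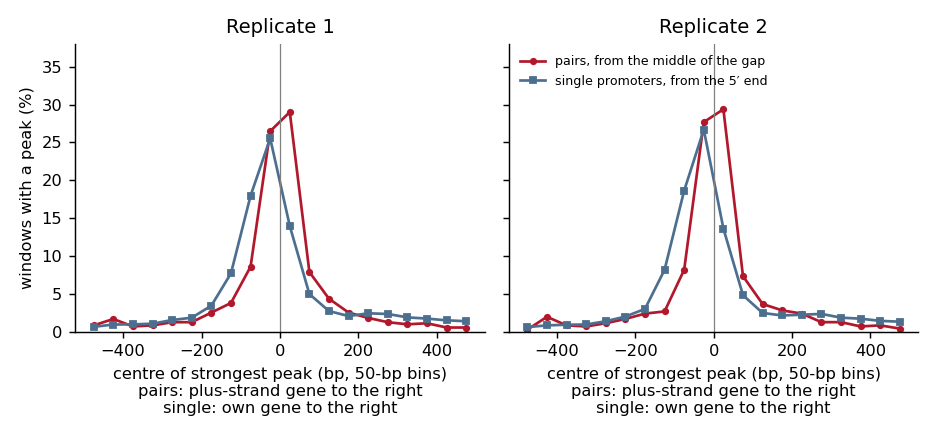
Position of the centre of the strongest peak in 50-bp bins (x axis) as a share of windows with a peak (y axis, percent), from the middle of the gap for pairs and from the 5′ end for single promoters. The 2 bins around the middle hold 26.5% and 29.0% of pairs in replicate 1, while single promoters have 25.5% just before and 14.0% just past the 5′ end.

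Motif letters were searched on both strands from 200 bp before to 50 bp past each 5′ end, which rests on the genome alone. With a median gap of 128 bp, this window mostly takes in the partner's 5′ end at pair members. At single promoters it holds 1 protein-coding 5′ end. The ETS letters CCGGAAG were found at 371 of 1450 pair members (25.6%, 23.4 to 27.9), against 14.1% of single promoters weighted to the same CpG deciles, 8.74% of single promoters and 10.4% of all promoters. The YY1 letters AAGATGGC were at 7.31% of members (6.02 to 8.77), against 3.20% weighted, 2.22% of single and 2.68% of all promoters. CCAAT was at 41.2% (38.6 to 43.8), against 33.6% weighted, 34.2% of single and 34.5% of all promoters, but within 500 bp to each side it was at 68.7% of members (66.2 to 71.1), 64.6% weighted and 70.7% of single promoters. The palindrome TCTCGCGAG, found in housekeeping promoters, was at 45 members (3.10%, 2.27 to 4.13), against 1.24% weighted, 0.64% of single and 0.85% of all promoters. For these 4 the lower bound of the members' interval lay above the CpG-weighted share. In the 601 stretches of up to 300 bp between the ends, ETS letters were at 14.8%, YY1 letters at 0.50%, CCAAT at 31.9% and the palindrome at 2.16%. These stretches are mostly shorter than the window, so the shares are not comparable. Whether the excess belongs to a member's own promoter, its partner's or the shared stretch was not tested.

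GGGCGG was at 66.3% of members, 66.4% of weighted, 40.0% of single and 42.5% of all promoters, so that no difference was left after weighting. The remaining motifs were rarer. NRF1 (GCGCATGC) was at 6.48% of members (5.27 to 7.88), 5.17% of weighted, 2.97% of single and 3.30% of all promoters. The cAMP response element TGACGTCA was at 4.55% of members (3.54 to 5.75), 3.33% of weighted, 2.11% of single and 2.31% of all promoters. The lower bounds of both lay just above the weighted shares. The E-box CACGTG was at 10.9% of members, 9.54% of weighted, 6.64% of single and 6.99% of all promoters. The ZNF143 letters ACTACAATT were at 0.69% of members, 0.45% of weighted, 0.46% of single and 0.48% of all promoters. AGGGGGCG, part of the CTCF motif and overlapping GGGCGG in its letters, was at 10.1% of members, 12.4% of weighted, 7.08% of single and 7.33% of all promoters. The TATA letters TATAAA were at 48 members (3.31%, 2.45 to 4.37), against 5.50% of weighted, 11.3% of single and 10.5% of all promoters, and the AP-1 letters TGANTCA at 2.48% of members, 3.10% of weighted, 5.96% of single and 5.65% of all promoters. The 2 ends of a pair share sequence, so that members are not independent and these intervals are too narrow.

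**Figure D5:**
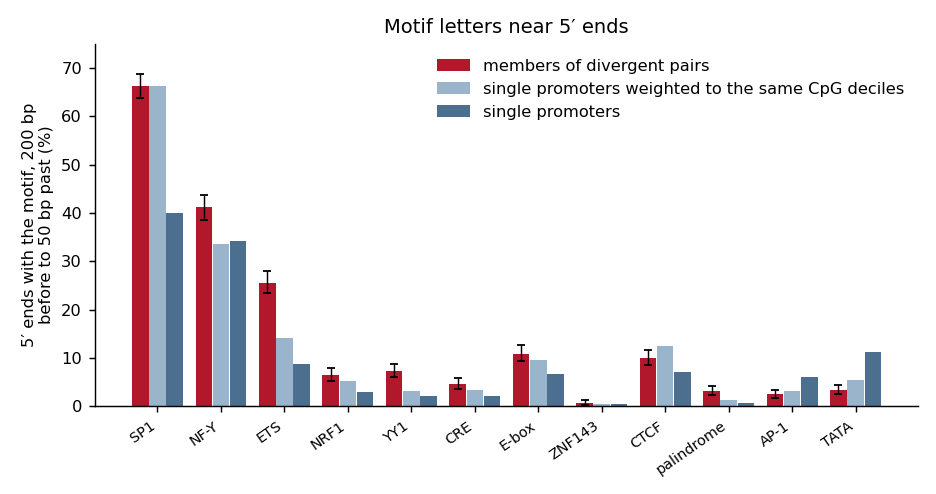
Share of 5′ ends with each motif (y axis, percent; 200 bp before to 50 bp past the end), for pair members with exact binomial 95% intervals, for single promoters weighted to the same CpG deciles, and for all single promoters. The palindrome is TCTCGCGAG. ETS letters stand at 25.6%, 14.1% and 8.74%, and TATA letters at 3.31%, 5.50% and 11.3%.

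All 8 textbook pairs that the rule found were accessible in both replicates. Atm/Npat, the DNA-damage kinase gene and that of a coactivator of histone genes, had strongest scores of 146 in replicate 1 and 137 in replicate 2 in a gap of 307 bp. Mrps12/Sars2, a mitochondrial ribosomal protein and the mitochondrial seryl-tRNA synthetase, had 145 and 135. Mcm4/Prkdc, a subunit of the replicative helicase and the catalytic subunit of the DNA-dependent protein kinase, had 142 and 123. These 3 ranked in the top 2% of peaks in both replicates. Brca1/Nbr1, a homologous recombination gene and an autophagy receptor gene, had 140 in replicate 1 and 122 in replicate 2, with the strongest peak centred in the gap in both. Wrap53/Trp53, of telomerase trafficking and the p53 tumour suppressor, had 133 and 122, and Hadha/Hadhb, the subunits of the mitochondrial trifunctional protein of fatty acid oxidation, 118 and 109. In Hadha/Hadhb the strongest peak lay inside the minus-strand gene, 131.5 bp inside Hadha in each replicate. A single hotspot covered both ends of all 8 pairs in both replicates.

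Col4a4/Col4a3 was the weakest of the 8. These genes encode basement membrane collagen chains found in glomeruli and alveoli. The strongest score was 93 in replicate 1 and 59 in replicate 2, and its percentile rank among all peaks was 86.8 in replicate 1 and 71.3 in replicate 2. The hotspot over the ends was 895 bp wide in replicate 1, with a −log10 q of 100, and 434 bp wide in replicate 2, with 3.24. The replicate 1 peak lay in the gap, and the strongest replicate 2 peak lay 189.5 bp inside Col4a3. Its ends had 42 CpG each.

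The pair with the highest mean rank was Hjurp/Trpm8, at 150 in replicate 1 and 148 in replicate 2, the highest score of each list. Hjurp is the chaperone of the centromeric histone CENP-A, and Trpm8 a cold-sensing ion channel of sensory neurons. The gap is 27 bases between the ends, and 1 peak of each replicate lies over it. Accessibility of the shared region does not say from which of the genes it comes. It was followed by Ttc9c/Hnrnpul2 (148 and 140), Psme2/Rnf31 (147 and 143), a proteasome activator subunit and a linear ubiquitin ligase, Phtf2/Tmem60 (147 and 140), Ranbp10/Tsnaxip1 (148 and 137), Zfp142/Bcs1l (147 and 137), Kif24/Nudt2 (148 and 136) and Gm10644/Asf1b (146 and 139), where Bcs1l assembles respiratory complex III and Asf1b is a histone chaperone. The widest hotspots over a 5′ end, by the narrower replicate, were at Cramp1l/Ift140 (4197 and 4000 bp), Mrps18b/Ppp1r10 (4702 and 3408 bp), Srgap2/Fam72a (4059 and 3323 bp), Cdk5/Slc4a2 (3352 and 3282 bp) and Ankrd17/Gm9958 (3159 and 2965 bp). Most peaks were found at Btf3l4/Txndc12, with 5 in replicate 1 and 6 in replicate 2 over a gap of 987 bp, and at 2700097O09Rik/Srp54a, with 6 in replicate 1 and 5 in replicate 2 over a gap of 152 bp. Fiz1/Gm44973, Ccni/2010109A12Rik and P3h4/Fkbp10 had 5 in each. Ccni/2010109A12Rik has a gap of only 23 bp, with 5 peaks in each replicate spread over 4 hotspots.

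The share of genes that stand in pairs was 6.97% over all protein-coding genes, and it was set beside that of 12 function lists. Of 105 DNA repair and replication genes, 30 stood in pairs (28.6%, 20.2 to 38.2). Of their 32 pairs, 31 had a peak of both replicates, against 96.2% of all pairs. Their median score was 131 in replicate 1 (133 over all pairs) and 116 in replicate 2 (117 over all pairs). Besides those above, they include Polk/Col4a3bp (146 and 137), a translesion polymerase gene, Xrcc3/Zfyve21 (149 and 131) and Rad51c/Tex14 (126 and 96), both with a homologous recombination gene, Toe1/Mutyh (140 and 129) and Osgep/Apex1 (131 and 112), both with a base excision repair gene, Aimp2/Pms2 (138 and 126), with a mismatch repair gene, and Emc3/Fancd2 (102 and 86), with a Fanconi anaemia gene and the lowest scores of the 31. These examples, apart from Polk/Col4a3bp, were chosen after their values were seen. In 1 of the 32 pairs, Mcm4/Prkdc, both genes were from the list. Dclre1b, Pms1 and Rpa3 each stood in 2 of the 32 pairs with the same scores, so these pairs are not separate regions.

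Of 78 mitochondrial ribosomal protein genes, 18 stood in pairs (23.1%, 14.3 to 34.0), and 18 of 18 pairs were accessible, from Zfp661/Mrps5 (90 and 86) to Mrps12/Sars2 (145 and 135). Of 93 respiratory chain genes, 22 stood in pairs (23.7%, 15.5 to 33.6), and 22 of 22 pairs were accessible, led by Ndufa2/Ik (146 and 133), a complex I subunit gene beside a spliceosome gene, and Atp5h/Kctd2 (142 and 122), with an ATP synthase subunit gene. Aminoacyl-tRNA synthetases had 5 of 37 genes in pairs, chaperonins and heat shock proteins 12 of 80, proteasome genes 7 of 49 and cytoplasmic ribosomal protein genes 8 of 72. Their pairs were accessible at 5 of 5, 11 of 11, 7 of 7 and 7 of 8. Over all pairs the accessible share was 96.2%, and the counts of the lists named here stood near it at these numbers of pairs. Examples are Hspa14/Cdnf (145 and 136), Psmb1/Tbp (137 and 124), a proteasome subunit beside the TATA-binding protein, and Rps27/Rab13 (140 and 121). The lowest of the chaperone pairs was Hspa1a/Hspa1l (114 and 82), with a stress-induced Hsp70 gene. For single promoters of the same lists the accessible share was 94.1% (64 of 68) for DNA repair, 95.5% for the mitochondrial ribosome and 86.7% for the respiratory chain. It was 92.6% for aminoacyl-tRNA synthetases, 80.4% for chaperonins and heat shock proteins, 83.8% for the proteasome and 96.5% for the cytoplasmic ribosome. High accessibility was thus not limited to the pairs of these lists.

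Core histone genes were the list with the largest share in pairs among those with over 4 genes, with 27 of 61 (44.3%, 31.5 to 57.6), and 13 of their 14 pairs held histone genes on both sides. In most of these an H2A gene faces an H2B gene, the partners of the dimer in the nucleosome. Of the 13, 10 were accessible in both replicates, against 96.2% of all pairs. Scores of the 10 ran from 131 to 143 in replicate 1 and 113 to 130 in replicate 2. The highest were Hist1h2ae/Hist1h2bg (143 and 130) and Hist1h2bf/Hist1h2ad (142 and 128). Hotspots there were narrow, at 300 and 162 bp over a 5′ end in both replicates, and a single hotspot covered both ends in both replicates at 1 of the 10. The other 3 pairs had neither a peak nor a hotspot: Hist1h2ap/Hist1h2br with 82 CpG at each end, Hist1h2bq/Hist1h2ao with 81 and 78, and Hist1h2ba/Hist1h2aa, testis histone genes in the mouse, with 49 and 44. Histone genes have near-identical copies in these clusters, and the sources used here do not say how reads that match several copies were treated. The part of such copies in the missing peaks and narrow hotspots was not tested. At 2700097O09Rik/Srp54a the hotspot over a 5′ end was also narrow, at 248 bp in each replicate, and the window's 6 and 5 peaks came with 5 hotspots in replicate 1 and 4 in replicate 2.

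Genes of motile cilia, zinc finger genes and lung markers were also looked up, and 96.2% of all pairs were accessible. Of 74 motile cilia genes, 9 stood in pairs (12.2%, 5.71 to 21.8), and 9 of 9 pairs were accessible, from Zfyve28/Cfap99 (63 and 46) to Prkar1b/Dnaaf5 (143 and 135) and Ccdc151/Prkcsh (145 and 130), with assembly or docking factors of the ciliary dynein arms. Of 358 numbered Zfp zinc finger genes, 20 stood in pairs (5.59%), close to the 6.97% of all genes, and 17 of 18 pairs were accessible, with Zfp142/Bcs1l and Zfp91/Lpxn (144 and 137) highest. Of 61 lung cell type markers, 2 stood in pairs (3.28%, 0.40 to 11.3). Of the 61, 48 had a peak of both replicates within 500 bp of the 5′ end, against 64.4% of all protein-coding 5′ ends. Other annotated starts of these markers were not looked up, so a marker without a peak here may be open at another. Among the 48 were the surfactant genes Sftpc (94 and 65) and Sftpb (105 and 81) and the alveolar type 1 gene Ager (113 and 85). Of the 13 others, 6 had no peak in either replicate: the B cell genes Cd79a and Pax5, the basal cell gene Krt5, the alveolar type 2 gene Slc34a2, the endothelial gene Vwf and the cilia gene Dnah5. A peak of replicate 1 only was found at Scgb1a1 and Cyp2f2 of club cells, Pdpn of alveolar type 1 cells, Col1a2 of fibroblasts and Trp63 of basal cells, and of replicate 2 only at Car4 and Lck. Markers of alveolar type 1, alveolar type 2 and endothelial cells thus stood on both sides. Those of B cells and basal cells stood only among the 13. Abca17/Abca3, with the lipid transporter of lamellar bodies in alveolar type 2 cells, had 116 and 110, with the strongest peak at the Abca3 end, 20.5 and 0.5 bp inside it. Pecam1/Milr1, with an endothelial adhesion molecule and a mast cell receptor gene, had 62 and 54, with the strongest peak near the Pecam1 end and hotspots of 276 and 298 bp. Its ends had 16 and 15 CpG, and it was among the 8 lowest-ranked of the accessible pairs.

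A few pairs had peaks on 1 side only. At 7 pairs both replicates had a peak within 500 bp of one 5′ end and neither had one within 500 bp of the other. Their gaps were 560 to 914 bp. By hotspots the picture differed at Zcchc3/6820408C15Rik, where a hotspot of 1703 bp lay over both 5′ ends in replicate 1 but none did in replicate 2. At Abhd12/Gins1 (134 and 119) the peaks were at Abhd12, a lipase gene, and not at Gins1, a subunit of the GINS replication complex. At Zcchc3/6820408C15Rik (142 and 103) they were at Zcchc3, at Tas1r1/Nol9 (115 and 94) at the ribosome biogenesis gene Nol9 and not at the taste receptor gene Tas1r1, at Obsl1/Inha (116 and 87) at Obsl1 and not at the inhibin alpha gene, at Nisch/Sema3g (122 and 93) at Sema3g, which encodes an endothelial semaphorin, at Klc3/Ckm (102 and 98) at Klc3 and not at the muscle creatine kinase gene Ckm, and at Haghl/Ccdc78 (95 and 96) at Haghl. In 7 of 7 the end with peaks had more CpG than the other, as at Tas1r1/Nol9 with 87 against 11, or Nisch/Sema3g with 14 against 9.

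The 28 pairs without a peak of both replicates were mostly CpG-poor. The 24 with no peak at all had a median of 18.5 CpG, against 68.5 at accessible pairs, and 22 of them had no hotspot either. Examples in alphabetical order of the minus-strand gene are 4930430F08Rik/1700017N19Rik (4 CpG at each end; printed above), 4931428L18Rik/Pih1d3 (14 and 13), Aspa/Gm49340 and Aspa/Spata22 (38 and 40), Best1/Rab3il1 (7 and 7), Dgcr2/Tssk2 (27 and 32), Fam217a/4933417A18Rik (8 and 9) and Gm12355/Gsdma3 (29 and 7). Tssk2 and Spata22 act in the male germ line, Aspa and Best1 are best known from brain and retina. Others, chosen after their values were seen, join genes of other organs, such as Kirrel2/Nphs1 of the kidney podocyte and Nr2e1/Ostm1, with a transcription factor of neural stem cells. At 9 of the 24 both ends had at least 27 CpG, the 3 histone pairs among them. Of the 4 pairs with a peak in a single replicate, Bhmt2/Dmgdh (score 31), Ccnt1/4930415O20Rik (48) and Sncg/Mmrn2 (40) had it in replicate 1 and Smyd1/Cd8b1 (30) in replicate 2, all below the median score of their list.

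Some of these genes were open at another of their annotated starts. At 16 of the 28 pairs, at least 1 gene had a peak of both replicates within 500 bp of another annotated transcription start. For the ribosomal protein gene Rps2, of the pair Rnf151/Rps2, this was 1947 bp away, with scores of 144 and 126. For the repair gene Xrcc1, of Pinlyp/Xrcc1, it was 861 bp away (146 and 134), for Ccnt1 3378 bp (136 and 123), for Dgcr2 6969 bp (123 and 117), for Trim28, of Slc27a5/Trim28, 25038 bp (117 and 104) and for Ostm1 95094 bp (120 and 108). These were chosen after their values were seen. Of the genes named above for other organs, Best1 had such a peak 8718 bp away (116 and 93). Aspa had one 5259 bp away (94 and 68) and Nphs1 one 26600 bp away (65 and 35). Tssk2, Spata22, Kirrel2 and Nr2e1 had none at any annotated start. With the 5′ end of the principal transcript in place of that of the gene model, the rule gave 753 pairs, of which 97.1% had a peak of both replicates.

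Replicates disagreed on few pairs. By percentile rank of the strongest peak within its own list, the 5 pairs highest in replicate 1 relative to replicate 2 were Kctd19/Lrrc36 (85.2 and 68.1), Col4a4/Col4a3, Spaca9/Ak8 (96.3 and 81.1), Asl/Crcp (92.9 and 77.8) and Sox6/1110004F10Rik (62.2 and 50.1). The 5 lowest in replicate 1 were Haghl/Ccdc78 (87.8 and 93.7), Sobp/9030612E09Rik (60.1 and 65.8), Zfp661/Mrps5 (85.2 and 90.4), Mfsd8/Abhd18 (93.5 and 97.9) and Klc3/Ckm (90.8 and 94.3). Pairs of named genes were accessible at 640 of 661 (96.8%), and pairs with a gene still named by a Gm or Rik identifier at 67 of 74 (90.5%, 81.5 to 96.1).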

How the data were processed

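From DNase-seq of 2 libraries, the authors called peaks and hotspots library by library on mm10, per the file headers. Neither depth nor the aligner, caller and versions are stated in the sources used here. The deposited peak score is a whole number of unstated meaning (2 to 150 and 2 to 148), and the deposited hotspots carry a −log10 q-value. Replicate 1 had 269825 and replicate 2 183814 distinct peaks on chromosomes 1 to 19; the labels list 2 instrument models for replicate 1 and none for replicate 2. Promoters came from GENCODE M21 and sequence from RefSeq GRCm38.p6. Windows ran 500 bp past the 5′ ends, and 1 bp of overlap counted. Shares have exact binomial 95% intervals. There are no conditions, and promoters of a map are not replicates, so no test was run. CpG weighting used deciles over all protein-coding 5′ ends. Pairs were named as textbook pairs, by extreme rank, width, peak number or replicate difference, and per function list by the 2 highest ranks and the first without a peak. A few pairs that these rules name are not reported here. Members, lists and rules were chosen with earlier results of these data known. Alternatives covered replicate, overlap, score, hotspots, window, gap, TSS and gene models. Python 3.11.15, numpy 2.4.6, pandas 2.3.3 and scipy 1.17.1 were used, and the counting was tested on simulated data.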

Additional observations from a re-analysis of the deposited data

How the results depend on the processing

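No paired analysis was possible because the series has 1 group. Differences run pairs minus single promoters, and moves are set against the SD between the replicate-alone values. Across 61 alternative values of 6 summary results, 40 moved by less than that SD and 21 by more. The summary results that are differences kept their direction, and those that are shares have none. With each replicate alone, accessible pairs were 96.3 to 96.6%, their lead over single promoters 31.3 to 35.1 points, the CpG-weighted lead of 5′ ends 3.14 to 5.23 points, the score lead 18 to 20, pairs under 1 hotspot 89.1 to 90.3%, and peaks between the ends 64.5 to 66.2%. With peaks above the median score the leads were 42.7 and, CpG-weighted, 11.1 points. Without weighting the end lead was 34.9 points, and weighted, the score lead was 11.5. With a flank of 250 bp, accessible pairs were 95.4% and peaks between the ends 61.3%. With gaps up to 300 bp they were 96.5% and 56.9%, and pairs under 1 hotspot 93.2%. With principal transcripts they were 97.1% and 67.2%. Without Gm and Rik models, accessible pairs were 96.8% and the lead 32.7 points. Merged hotspots gave 90.6%, and a 50 bp tolerance gave 82.5%. Motif differences changed sign for GGGCGG (-0.089 points) and AGGGGGCG (-2.32) when weighted, and for CCAAT (-2.00, unweighted) within 500 bp, and the cause was not tested. Counting 1 pair per region, or adding pairs with overlapping 5′ ends, were alternatives chosen after seeing the data, and each of their values moved by less than the SD. Depth is unknown, so a promoter without a peak was not detectable as open here, and no limit on it can be given.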
